A study of Homo sapiens with 16 samples.

Results

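MeWo is a human melanoma cell line that is labelled methionine independent, meaning that its cells can grow when homocysteine takes the place of methionine. The comparison described here set MeWo replicates 5 to 8 against MeWo replicates 1 to 4, which are 8 of the 16 RNA sequencing libraries of the series. The other 8 libraries come from A101D, a melanoma line labelled methionine dependent, also numbered 1 to 8. All cultures were grown in DMEM without methionine or cystine, to which dialyzed serum and 150 µM cystine were added. The control medium received 200 µM methionine, and the methionine-free medium received 200 µM homocysteine. The labels give no treatment time and do not name the medium of any library, so both sides are called by replicate number throughout, and no direction below is a direction of a medium. MeWo is 1 cell line, and its libraries are not stated to come from separate cultures, so the spread between them may be technical.

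The split was chosen by measured values. The levels of MAT2A, ATF4, ASNS, AHCY and RN7SL1 had been seen by replicate number in these libraries before the comparison was proposed. The differences between the sets are therefore given as a description of how far 2 sets of 4 libraries stand apart, with a standard error (SE) and without a p-value. A gene is named "called" when its Benjamini-Hochberg adjusted p in limma was under 0.05, and a difference is the log2 level in replicates 5 to 8 minus that in replicates 1 to 4. Levels are in CPM, which is each count divided by the size of its library, here scaled with TMM factors so that libraries of different composition can be set side by side.

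Methionine adenosyltransferase joins methionine to ATP to give S-adenosylmethionine, the donor of most methyl groups in the cell. After the methyl group is passed on, the remainder becomes homocysteine, which methionine synthase can turn back into methionine. Cells also carry an amino acid response, in which the transcription factor ATF4 is made when translation slows and induces genes for amino acid synthesis, transport and transfer RNA charging. The sterol response, driven by SREBP transcription factors, and the NRF2 and heat shock responses report on lipid supply, redox state and protein folding.

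The 8 MeWo libraries held 31217443 to 38722489 counts. Between 30066 and 31433 genes had a count, apart from replicate 2 with 34471. Libraries within 1 of the sets were closer to each other than to the other set. Divided by its degrees of freedom, the chi-square of a pair was 1.967 to 8.206 in the 12 pairs within a set and 9.864 to 16.153 in the 16 pairs between sets. That sum took in RN7SL1, an abundant RNA, and the other genes that chose the split. Their part in it was not tested. No pair agreed within sampling noise. The first principal component of the MeWo libraries, with 33.6% of the variance, placed replicates 1 to 4 between -15.56 and -2.89 and replicates 5 to 8 between 4.74 and 14.5. Replicate 4 lay nearest to the other set. The line carried the markers of its label: all 11 melanocytic markers passed the filter on low counts, and together they reached 10710 to 11860 CPM in the libraries 1 to 4 against 11500 to 11880 CPM in the libraries 5 to 8. Markers of leukocytes and of endothelial and epithelial cells summed to at most 4.08 CPM in any library. The fibroblast markers summed to 76.0 to 80.4 CPM and 77.0 to 85.4 CPM. None of these 4 lists had a member called.

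Of 18196 genes tested, 3184 were called, or 17.5% of them. The called genes were split into 1481 that were higher in replicates 5 to 8 (8.14% of all tested) and 1703 that were lower (9.36%). Differences were small: the median called gene differed by 0.20 on the log2 scale, or 1.15-fold, and 283 called genes differed by at least 1.5-fold, 176 of them higher and 107 lower. At least 2-fold differences were called for 80 genes (0.44%), 27 higher and 53 lower. Most of these were rare transcripts, with a median of 0.411 CPM. Only MAT2A and CHAC1 reached both a 2-fold difference and a mean of 10 CPM. All 4 libraries of one set lay above all 4 of the other for 3520 genes (19.3%), of which 2535 were also called. With total counts in place of TMM factors the split of called genes turned from 46.5% higher to 66.8% higher (2209 higher and 1098 lower), as that scaling moved the median log2 difference of all genes by 0.035.

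Composition differed between the sets as well. RN7SL1, the RNA of the signal recognition particle, took 1.39% to 1.60% of all counts in the first set, replicates 1 to 4, against 0.557% to 0.915% in the second set, replicates 5 to 8. Genes of the mitochondrial genome took 1.32% to 1.45% and 1.28% to 1.39%. The part of this composition in the results below was not tested. In bulk RNA, fewer cells with a transcript and less transcript per cell cannot be told apart.

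MAT2A had the largest difference of the called genes with a mean of at least 10 CPM. It encodes the catalytic subunit of methionine adenosyltransferase outside the liver and lies on chromosome 2 at 85539165 to 85545280 (GRCh38, GENCODE 29). Its level was 181, 174, 187 and 193 CPM in replicates 1 to 4 and 647, 670, 663 and 618 CPM in replicates 5 to 8. All libraries of the second set lay above all libraries of the first. The means were 184 ± 8.07 CPM and 650 ± 23.0 CPM (SD, n = 4 each), a log2 difference of 1.82 ± 0.03 (SE) or 3.54-fold.

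**Figure D1:**
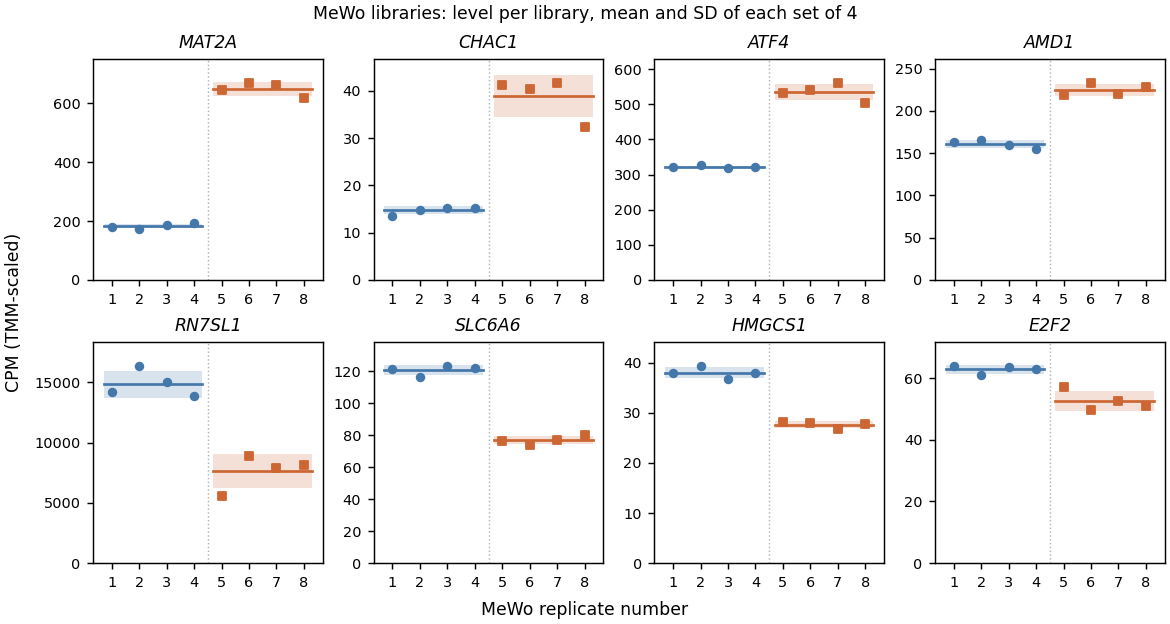
Level (CPM, linear axis from 0) of 8 genes in each MeWo library, with circles for replicates 1 to 4 and squares for replicates 5 to 8. Lines are set means and bands are 1 SD (n = 4). The sets do not overlap in any panel. As a fold, the difference is largest for MAT2A, at 184 against 650 CPM. MAT2A, ATF4 and RN7SL1 were among the genes that chose the split.

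Of 19 listed genes of the S-adenosylmethionine cycle, 16 were tested. MAT2A and AHCY chose the split, and of the other 14 tested, 3 were called higher and 3 lower, with a median log2 difference of -0.06 beside 0.01 over all tested genes. CTH, which makes cysteine from cystathionine, was at 5.82, 5.47, 5.52 and 5.62 CPM in replicates 1 to 4 and at 8.47, 9.50, 9.31 and 8.17 CPM in replicates 5 to 8. The sets did not overlap, and the log2 difference was 0.65 ± 0.09. MMACHC, which processes the cobalamin that methionine synthase needs, differed by 0.24 ± 0.06, from a mean of 15.8 to 18.6 CPM. MMADHC, also a gene of cobalamin handling, went the other way and was called lower (-0.14). PEMT and NNMT, methyltransferases acting on a phospholipid and on nicotinamide, were lower by small margins (-0.21 ± 0.05 and -0.19 ± 0.05), and the libraries of NNMT overlapped. MTR, methionine synthase itself, lay between 107 and 114 CPM in the first set and between 106 and 113 CPM in the second. AHCY, which cleaves S-adenosylhomocysteine into homocysteine, was at 270, 272, 271 and 258 CPM and at 273, 233, 257 and 255 CPM, and its sets overlapped. CBS, which draws homocysteine toward cysteine, was low in both sets (1.54 ± 0.152 and 1.81 ± 0.218 CPM) and was not called. BHMT, the betaine-dependent remethylation enzyme, had 6 counts in all 8 libraries together and did not pass the filter.

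In polyamine synthesis and methionine salvage, 15 of 16 listed genes were tested, 1 was called higher and 3 were called lower. Over all genes the shares were 8.14% and 9.36%. The 1 higher gene was AMD1, the decarboxylase that commits S-adenosylmethionine to polyamine synthesis. AMD1 was at 163, 166, 160 and 155 CPM in replicates 1 to 4 and at 219, 233, 220 and 228 CPM in replicates 5 to 8, without overlap and with a log2 difference of 0.48 ± 0.03. OAZ2, an antizyme that limits polyamine synthesis, was lower by 0.25 on the log2 scale (-0.25 ± 0.04), as was SRM, spermidine synthase (-0.15 ± 0.04). ODC1, ornithine decarboxylase, was not called (-0.06 ± 0.03). MTAP, which recovers methionine from the by-product of polyamine synthesis, lay between 74.5 and 75.9 CPM in the first set and between 75.0 and 79.1 CPM in the second, and was not called.

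METTL16, the methyltransferase that marks MAT2A RNA, was at 68.7 to 73.1 CPM and 71.8 to 76.7 CPM and was not called. Of 16 m6A genes tested, 2 were called, both higher. That is 12.5%, no more than the 17.5% called over all genes. The count was 1 without replicate 2 and 5 with total counts. The 2 genes were YTHDC1, a nuclear reader of the mark (0.20 ± 0.04), and WTAP, a subunit of the writer complex (0.11 ± 0.04). Among 18 kinases and factors of splicing, 5 were called higher and 2 lower. The higher count was 2 without replicate 2 and 7 without replicate 5, and none was called lower without replicate 1 or with total counts. The largest difference was in CLK1, a kinase of splicing factors, at 70.3, 68.2, 69.3 and 74.2 CPM against 82.8, 100.1, 89.0 and 90.7 CPM, a log2 difference of 0.36 ± 0.04. Its relative CLK4 differed by 0.31 ± 0.06, while CLK3 was slightly lower (-0.12 ± 0.04). SRSF1 was lower too (-0.11 ± 0.03).

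Of 27 lists, the amino acid response had the most genes called higher. All 40 listed genes were tested, 26 were called higher and 3 lower, against 8.14% and 9.36% of all genes, and the median log2 difference was 0.33. The count of higher genes ranged from 23 to 27 when each library was left out in turn. The list score, a mean of centred log2 levels, lay between -0.15 and -0.13 in the first set and between 0.09 and 0.17 in the second. ATF4 and ASNS are members and were among the genes that chose the split. Without them 24 of 38 were called higher and 3 lower, with a median of 0.26.

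A short response element bound by C/EBP and ATF proteins marks several genes of this list. The letters TGATGNAAN were searched on both strands in the 300 bases from 250 before to 50 after each RefSeq start (GRCh38.p14), which were on hand for 11802 tested genes. They were found in 1.79% of these promoters, in 2.80% of those of genes called higher, in 1.43% of those called lower, and in 9 of 34 from the amino acid response. Of those 9 genes, 6 were called higher, while SLC3A2, SLC7A1 and NARS1 were not called. A match of letters is no evidence of binding. The windows below are shown because they belong to genes of the list that were called higher; they read 5′ to 3′ on the strand of the gene, with the match in capitals. The CHAC1 and AARS1 matches lie on the opposite strand.
CHAC1, chr15:40953241-40953289, plus strand: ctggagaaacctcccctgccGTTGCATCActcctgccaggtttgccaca
ASNS, chr7:97872448-97872496, minus strand: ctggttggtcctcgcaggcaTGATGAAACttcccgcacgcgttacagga
AARS1, chr16:70289666-70289714, minus strand: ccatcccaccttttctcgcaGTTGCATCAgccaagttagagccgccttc

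CHAC1, which breaks down glutathione, was at 13.6, 14.9, 15.3 and 15.2 CPM in replicates 1 to 4 and at 41.2, 40.4, 41.7 and 32.4 CPM in replicates 5 to 8. Replicate 8 was the lowest of its set and still above every library of the other set. The log2 difference was 1.39 ± 0.08, or 2.62-fold. ATF4, the transcription factor of the response, was at 323, 326, 318 and 322 CPM against 532, 540, 561 and 505 CPM, a difference of 0.73 ± 0.03 without overlap. ASNS, asparagine synthetase, was rarer, at 5.65, 6.63, 5.01 and 5.38 CPM against 8.12, 9.64, 8.84 and 8.81 CPM, a difference of 0.65 ± 0.09. These 3 genes differ widely in abundance. The sets lay apart in each of them, but ATF4 and ASNS were among the genes that chose the split.

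Other genes called higher included partners and targets of ATF4. In the whole list 11 genes were not called, among them ATF5 (-0.09), PYCR1 (-0.05), PSPH (0.11), VLDLR (0.13) and STC2 (0.14). TRIB3, a pseudokinase that restrains ATF4, was at 66.9, 75.5, 74.2 and 76.6 CPM against 109, 123, 124 and 107 CPM (0.65 ± 0.05). SESN2, which restrains the growth kinase mTORC1 when leucine is short, was at 12.3, 12.1, 11.8 and 13.4 CPM against 20.3, 19.5, 21.8 and 17.1 CPM (0.65 ± 0.07). CEBPG, a partner of ATF4 on the response element, was at 49.0, 47.5, 49.1 and 46.6 CPM against 69.3, 79.0, 73.6 and 70.4 CPM (0.60 ± 0.04). In each of these 3 genes the sets did not overlap. CEBPB (0.47 ± 0.04), DDIT3 (0.47 ± 0.05), DDIT4 (0.40 ± 0.04) and GDF15 (0.46 ± 0.04), a secreted stress factor, were called higher as well. DDIT3 overlaps the end of MARS1 on the opposite strand, and the strand setting of the counting is not given in the sources used here, so reads of the overlap cannot be assigned.

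Genes of serine and folate metabolism and of transfer RNA charging differed by less. PSAT1 of serine synthesis went from 89.0 ± 4.44 to 115 ± 7.03 CPM (0.37 ± 0.04), and MTHFD2, a mitochondrial folate enzyme, from 160 ± 3.88 to 209 ± 8.90 CPM (0.38 ± 0.04). PCK2 (0.40 ± 0.04) and ALDH1L2 (0.47 ± 0.11) were also called higher. Of the 8 transfer RNA synthetases of the list, 6 were called higher and none lower. SARS1 differed by 0.37 ± 0.03, AARS1 by 0.36 ± 0.03, CARS1 by 0.33 ± 0.04 and MARS1, which charges methionine, by 0.20 ± 0.03, while NARS1, for asparagine, was not called (0.02). PHGDH, the first enzyme of serine synthesis, differed by only 0.10 ± 0.03 with overlapping sets, and its call was lost with median-of-ratios factors. Of the 5 SLC transporter genes of the list, none was called higher and 1 was called lower. SLC7A11, the cystine importer, was at 708, 718, 712 and 758 CPM against 628, 706, 662 and 702 CPM and was called lower (-0.10 ± 0.03), a call that was lost with total counts or upper-quartile factors. SLC7A5, which carries methionine and other large amino acids, was at 1658 to 1745 CPM and 1553 to 1702 CPM and was not called. The other genes called lower were ALDH18A1 of proline synthesis (-0.17 ± 0.04) and CDKN1A, a brake on the cell cycle (-0.25 ± 0.06).

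**Figure D2:**
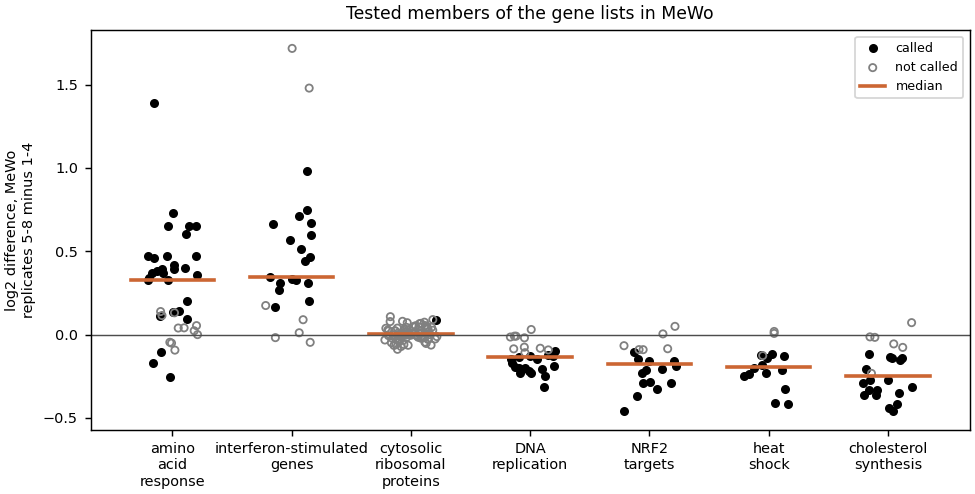
Log2 difference (replicates 5 to 8 minus 1 to 4) of each tested member of 7 gene lists in MeWo. Filled points were called, open points were not, and bars are list medians. The medians run from 0.35 for interferon-stimulated genes and 0.33 for the amino acid response to -0.25 for cholesterol synthesis, with ribosomal proteins at 0.00.

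Interferon-stimulated genes, the antiviral program that interferon switches on, were higher in replicates 5 to 8. Of 25 tested of 27 listed, 18 were called higher and none lower, with a median of 0.35. Without each library in turn, 15 to 17 were called higher and none lower. Levels were low: IRF7, a factor that amplifies the program, was at 8.92, 9.84, 9.80 and 10.9 CPM against 15.2, 15.1, 16.5 and 15.7 CPM, a difference of 0.67 ± 0.07. MX1, an antiviral GTPase, was at 3.10, 4.34, 2.77 and 3.30 CPM against 4.81, 4.74, 5.14 and 6.44 CPM (0.66 ± 0.12). IFIT1, a sensor of foreign RNA caps, was at 6.19, 8.27, 6.93 and 6.42 CPM against 11.5, 9.33, 10.7 and 13.9 CPM (0.71 ± 0.12). In MX1 and IFIT1 the highest library of each set was replicate 2 and replicate 8.

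The rarest members varied most. OAS2, an enzyme of the RNA decay pathway, was at 0.48 to 0.57 CPM against 0.64 to 1.48 CPM (0.75 ± 0.27), with replicate 8 highest. OASL, at 0.15 to 0.35 CPM against 0.30 to 0.64 CPM, was called with overlapping sets (0.98 ± 0.34). The calls of OAS2 and OASL were lost without replicate 8, and also without replicate 1 or 3. IFI44L and RSAD2 had larger differences, 1.72 ± 0.74 and 1.48 ± 0.90, rested on 0 to 50 counts per library, and were not called. IRF9, the DNA-binding subunit of the factor that drives the program, was called higher (0.60 ± 0.10). Of 15 tested genes of antigen presentation on MHC class I, 2 were called higher and none lower, with a median of 0.12. That is 13.3%, no more than the 17.5% called over all genes. With total counts 7 were called higher, and without a single library 1 to 3 were (1 without replicate 1).

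The interferon-stimulated response element was searched as GAAANNGAAA on both strands in the same 300-base windows. It was present in 2.83% of all promoters, in 3.83% of those of genes called higher, in 1.58% of those called lower, and in 11 of 18 promoters from this list. It was also present in 7 of 12 promoters of MHC class I genes, and none of those 7 genes was called higher. Windows of 3 list members that were called higher are shown on the strand of the gene with the first match in capitals. The IFIT1 and ISG15 promoters hold 2 matches each, and the second lies in the window shown but is not marked. The IFIT1 match in capitals lies on the opposite strand.
IFIT1, chr10:89392487-89392536, plus strand: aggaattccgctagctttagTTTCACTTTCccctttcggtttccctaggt
ISG15, chr1:1013364-1013413, plus strand: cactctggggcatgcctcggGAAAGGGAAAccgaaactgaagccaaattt
MX1, chr21:41420559-41420588, plus strand: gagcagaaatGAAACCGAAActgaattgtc
ISG15, a ubiquitin-like protein and marker of the program, was at 9.94, 10.5, 8.95 and 8.74 CPM against 12.3, 10.5, 13.3 and 15.7 CPM (0.44 ± 0.10), and the lowest library of its second set was close to the highest of its first.

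Cholesterol synthesis was lower in replicates 5 to 8. All 24 listed genes were tested, and 18 were called lower and none higher, against 9.36% of all genes. The median log2 difference was -0.25, and 15 to 17 were called lower when each library was left out. HMGCS1, which makes the precursor of mevalonate, was at 38.0, 39.4, 36.8 and 37.9 CPM in replicates 1 to 4 and at 28.2, 27.9, 26.8 and 27.7 CPM in replicates 5 to 8. Its difference of -0.46 ± 0.04 was the largest of the list. SQLE, squalene epoxidase, was at 78.2, 77.8, 80.9 and 75.4 CPM against 62.2, 54.8, 56.6 and 57.2 CPM (-0.44 ± 0.04). MSMO1, a later enzyme of the pathway, differed by -0.41 ± 0.04. INSIG1, which holds SREBP in the endoplasmic reticulum and is itself a target, differed by -0.36 ± 0.04. SREBF2, the transcription factor of the pathway, was lower by a smaller margin, from 125 ± 2.68 to 112 ± 3.76 CPM (-0.15 ± 0.04). The sets did not overlap in any of these 5 genes.

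Of 16 fatty acid genes, 9 were called lower and 2 higher, with a median of -0.14. FASN, fatty acid synthase, was at 367, 378, 372 and 371 CPM against 318, 263, 309 and 294 CPM (-0.33 ± 0.04). ACACA, the first committed enzyme, went from 107 ± 2.07 to 87.8 ± 0.986 CPM (-0.29 ± 0.04). The 2 genes called higher were ACACB, its mitochondrial relative (0.23 ± 0.05), and SREBF1, a transcription factor of lipid synthesis (0.16 ± 0.04). Of 12 genes of phosphatidylcholine synthesis, 5 were called lower and none higher, beside 9.36% and 8.14% over all genes. The lower count was 4 without replicate 1 and 3 with total counts. The 5 genes included PEMT, described above, and CHKA, choline kinase (-0.14 ± 0.04).

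NRF2 targets, which protect against oxidants, were lower too: 14 of 20 tested of 22 listed were called lower and none higher, with a median of -0.18. GSR, which regenerates glutathione, was at 154, 153, 148 and 146 CPM against 119, 115, 114 and 117 CPM (-0.37 ± 0.03). TXNRD1, thioredoxin reductase, was at 613, 623, 624 and 649 CPM against 513, 504, 510 and 534 CPM (-0.28 ± 0.03). HMOX1, which degrades heme, differed by -0.33 ± 0.05, NQO1, a quinone reductase, by -0.23 ± 0.03, and the rarer SRXN1 by -0.46 ± 0.13. NFE2L2, the gene of NRF2 itself, was not called (0.05 ± 0.04), with overlapping sets at 94.0 to 103 CPM and 100.8 to 109 CPM. SLC7A11, already given, belongs to this list as well as to the amino acid response.

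Of the 27 lists, heat shock genes had the largest share called lower, 13 of 16 tested, with none higher and a median of -0.19. HSPD1, a mitochondrial chaperonin, was at 901, 900, 874 and 801 CPM against 752, 736, 708 and 733 CPM (-0.25 ± 0.03). HSPA1A and HSPA1B, inducible chaperones, differed by -0.33 ± 0.05 and -0.41 ± 0.05, but are near-identical copies whose reads the counting may have split or dropped. CRYAB, a small heat shock protein, was rare and lower (-0.42 ± 0.09). In the unfolded protein response 8 of 22 were called lower, which became 5 without replicate 1 or with total counts, and 1 was called higher, HERPUD1, a factor of protein disposal from the endoplasmic reticulum (0.27 ± 0.04). HSPA5, the main chaperone there, differed by -0.11 ± 0.03 with overlapping sets.

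**Figure D3:**
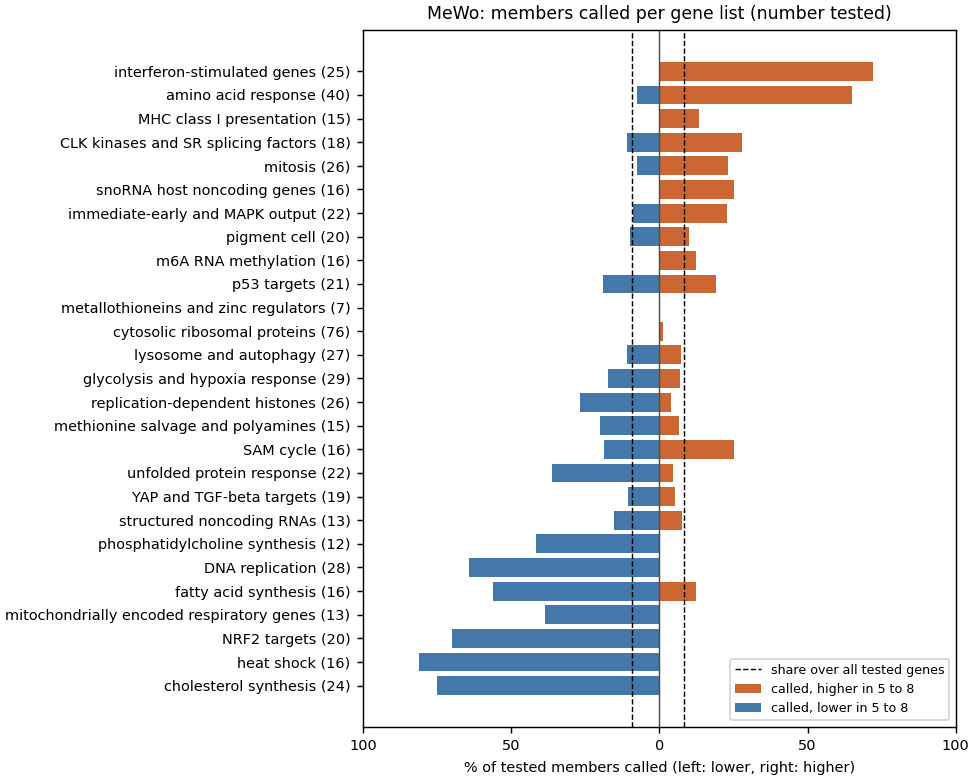
Share of the tested members of each of 27 gene lists that were called higher (right) or lower (left) in MeWo replicates 5 to 8, ordered by median log2 difference. Dashed lines mark the shares over all 18196 tested genes, 8.14% and 9.36%. Interferon-stimulated genes (18 of 25) and the amino acid response (26 of 40) extend farthest to the right, and heat shock genes (13 of 16) farthest to the left.

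The cell cycle did not move as 1 block. Of 28 DNA replication genes, 18 were called lower and none higher, with a median of -0.13. The largest difference was that of MCM10, which helps open replication origins, at 59.1, 53.3, 53.8 and 49.5 CPM against 45.1, 43.0, 42.1 and 43.2 CPM (-0.31 ± 0.05). MCM6, a subunit of the replicative helicase (-0.25 ± 0.04), CDC6, its loader (-0.23 ± 0.04), CCNE1, cyclin E (-0.23 ± 0.06), and PCNA, the polymerase clamp (-0.20 ± 0.04), were lower without overlap. Mitosis genes went both ways, 6 of 26 called higher and 2 lower, with a median of 0.04, and 10 were called higher with total counts. CENPF (0.20 ± 0.03) and CENPE (0.19 ± 0.04), proteins of the kinetochore, were higher, BUB1, a checkpoint kinase, was lower (-0.14 ± 0.04), and MKI67 and CDK1 were not called. Of 26 tested replication-dependent histone genes, 7 were called lower and 1 higher. Only 2 were called lower without replicate 1, 4 were called higher without replicate 6, and total counts gave 5 higher and 4 lower. H4C9 had the largest difference, from 27.2 ± 0.995 to 20.6 ± 0.479 CPM (-0.40 ± 0.05). Histone genes lack long poly(A) tails and have near-identical copies, so their counts are uncertain.

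Of 76 cytosolic ribosomal protein genes 1 was called higher and none lower, below the shares over all genes, with a median of 0.00. With total counts 16 were called higher. Of 20 pigment cell genes, 2 were called higher and 2 lower, a share near that of all genes. MITF, the master factor of the lineage, was at 589, 595, 544 and 512 CPM against 567, 558, 543 and 546 CPM, and PMEL, the melanosome fibril protein, at 6209 to 6764 CPM against 6484 to 6826 CPM. TYR was not called (-0.07 ± 0.04), TYRP1, an enzyme of melanin synthesis, was slightly higher (0.15 ± 0.03), and CDH19, a cadherin, slightly lower (-0.21 ± 0.04). None of 7 tested metallothionein and zinc genes was called. Targets of p53 were split, 4 of 21 higher and 4 lower, a larger share in each direction than over all genes. The lower count was 2 without replicate 2 and 3 with total counts. BBC3, a cell death gene (0.51 ± 0.08), and GDF15 were at one end, and CDKN1A and MDM2 (-0.11 ± 0.04) at the other. Of 29 glycolysis and hypoxia genes, 2 were called higher and 5 lower (24.1%, beside 17.5% over all genes). That count was 4 higher without replicate 2, 8 lower without replicate 5, and 6 higher with total counts. PFKFB4, which sets the level of a glycolytic activator, was at 410, 385, 393 and 411 CPM against 319, 287, 297 and 303 CPM (-0.41 ± 0.03), while VEGFA, a vessel growth factor, was higher (0.22 ± 0.04).

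Among abundant genes outside the lists above, the signal recognition particle RNA had the largest difference downward. RN7SL1, on chromosome 14 at 49586580 to 49586878, was at 14170, 16370, 15040 and 13860 CPM in replicates 1 to 4 and at 5581, 8906, 7912 and 8177 CPM in replicates 5 to 8. The sets did not overlap, the difference was -0.98 ± 0.15, and replicate 5 was the lowest. RN7SL3 (-0.89 ± 0.15), RN7SL4P (-0.84 ± 0.16) and RN7SL471P (-0.54 ± 0.06) share nearly the same sequence, so reads between these copies cannot be assigned with certainty. Of 30 RN7SL genes tested, 7 were called lower and none higher.

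Of 29 tested genes of the mitochondrial genome, 10 were called lower and 1 higher. Over all genes the shares were 9.36% lower and 8.14% higher. Of 13 respiratory genes encoded there, 5 were called lower and none higher. They included MT-ND5 of complex I (-0.35 ± 0.05) and MT-CO2 of complex IV (-0.29 ± 0.03). With total counts 3 of the 13 were called lower, and the list scores of the sets overlapped. Among 14 mitochondrial transfer RNA genes, 5 were called lower. MT-TC, for cysteine, was at 48.2, 44.2, 43.4 and 44.3 CPM against 25.0, 32.4, 30.4 and 32.8 CPM (-0.58 ± 0.07). Its neighbour MT-TY, for tyrosine, differed by -0.48 ± 0.06. The 1 gene called higher was MT-TM, the transfer RNA for methionine, named here after its value was seen. MT-TM rested on 5 to 51 counts per library, at 0.17, 0.72, 0.22 and 0.15 CPM in replicates 1 to 4 and 0.83, 1.39, 1.44 and 1.30 CPM in replicates 5 to 8. The sets did not overlap, replicate 2 was the highest of its set, and the difference was 2.22 ± 0.33. Transfer RNAs are shorter than the usual fragments of such libraries, so these counts do not measure their mature level.

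The other genes with the largest differences belonged to no list. ACCS, a gene related to plant aminocyclopropane carboxylate synthase, was at 15.1, 12.6, 15.4 and 17.1 CPM against 23.8, 24.7, 24.7 and 23.5 CPM (0.69 ± 0.06). SPOCK1, a matrix proteoglycan, was at 13.6, 13.3, 12.8 and 13.4 CPM against 20.3, 22.1, 22.2 and 20.4 CPM (0.68 ± 0.06). APOL6, of the apolipoprotein L family, UBAP1L and CCDC71L differed by 0.67 ± 0.08, 0.61 ± 0.05 and 0.56 ± 0.05. In the other direction, SLC6A6, the taurine transporter, was at 121, 116, 123 and 122 CPM against 76.4, 74.0, 76.9 and 80.1 CPM, a difference of -0.65 ± 0.04 and 1.57-fold. IL11, a cytokine, was at 42.2, 39.5, 45.5 and 50.8 CPM against 31.6, 24.3, 31.0 and 30.5 CPM (-0.60 ± 0.10). BRSK2, a kinase, and DMTN, a binder of actin, differed by -0.47 ± 0.06 and -0.43 ± 0.04. These genes were named from those whose sets did not overlap, so their lack of overlap is no separate result.

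The same split by replicate number was fitted in A101D, where 35.6% of 19673 genes were called higher in replicates 5 to 8 and 34.7% lower. The difference between the lines was tested as an interaction over all 16 libraries, and 10594 of 21569 genes were called (49.1%). The split is again the one chosen by measured values, and the A101D libraries are not stated to come from separate cultures either. The log2 difference of MAT2A was 1.82 ± 0.03 in MeWo and 2.16 ± 0.03 in A101D, an interaction of -0.34 ± 0.05. CHAC1 differed by 1.39 in MeWo and 3.48 ± 0.07 in A101D (interaction -2.10 ± 0.13), CEBPG by 0.60 and 2.699 ± 0.06 (-2.09 ± 0.07), TRIB3 by 0.65 and 2.42 ± 0.05 (-1.77 ± 0.08) and ATF4 by 0.73 and 1.33 ± 0.03 (-0.60 ± 0.04). Of the 40 genes of that list, the interaction was called for 38, with MeWo below A101D in 37.

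Some genes differed in MeWo and took another course in A101D. AMD1 was higher in MeWo replicates 5 to 8 but lower in those of A101D (-0.998 ± 0.07, from 406 to 204 CPM). Its interaction of 1.48 ± 0.08 was called. UBAP1L went from 4.49 to 2.94 CPM in A101D (interaction 1.22 ± 0.16), and ACCS from 11.9 to 10.9 CPM (0.81 ± 0.10). SPOCK1 differed more in MeWo than in A101D (0.44 ± 0.07). For cholesterol synthesis 23 of 24 genes were called lower in A101D, with a median of -0.91, beside 34.7% of all genes. The interaction was called for 22 of the 24 genes, 21 with MeWo above A101D, beside 49.1% of all genes. NRF2 targets had a median of -0.18 in MeWo and 0.13 in A101D, and the interaction was called for 19 of 22 genes, 13 with MeWo below.

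**Figure D4:**
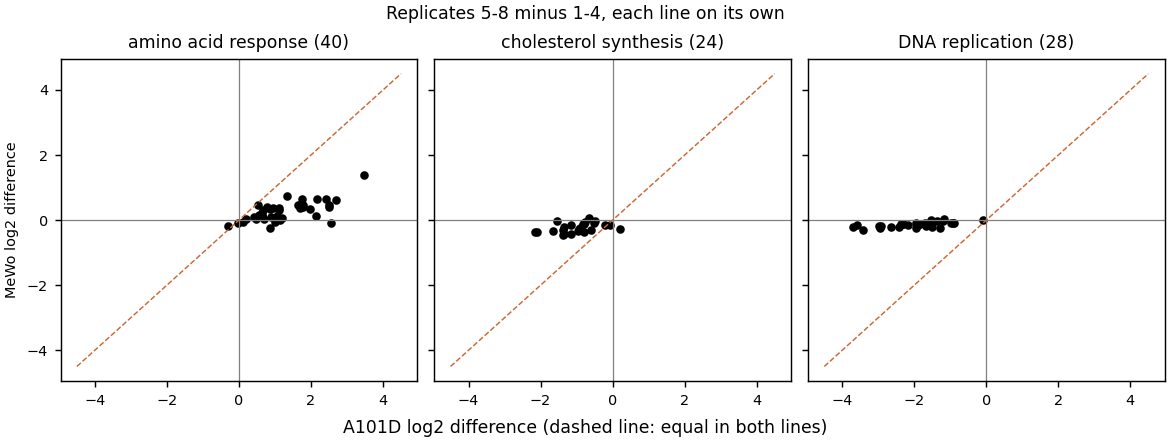
Log2 difference between the sets (replicates 5 to 8 minus 1 to 4) in A101D (x axis) and MeWo (y axis), each line on its own, for the genes of 3 lists. The dashed line marks equal differences. MeWo medians are 0.33, -0.25 and -0.13 for the amino acid response, cholesterol synthesis and DNA replication, and A101D medians are 1.08, -0.91 and -1.92.

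Cell cycle genes set the lines apart. Over all genes 34.7% were called lower in A101D, and the interaction was called for 49.1%. All 28 DNA replication genes were called lower in A101D, with a median of -1.92 beside -0.13 in MeWo, and the interaction was called for 27, each with MeWo above. All 26 mitosis genes were called lower in A101D (median -1.76), where MeWo had a median of 0.04, and the interaction was called for each. E2F2, an activator of S-phase genes, had the largest interaction of the genes with a mean of 10 CPM in MeWo. It was at 64.0, 60.9, 63.7 and 63.0 CPM against 57.1, 49.6, 52.7 and 51.0 CPM in MeWo, a difference of -0.26 ± 0.04. In A101D it went from a mean of 20.7 to 0.611 CPM (-5.12 ± 0.19), and the interaction was 4.86 ± 0.20. For ribosomal proteins the A101D median was -0.54, and the interaction was called for 72 of 76, each with MeWo above.

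In A101D 16 of 26 tested interferon-stimulated genes were called higher and 4 lower, with a median of 0.45 beside 0.35 in MeWo. Over all genes the interaction was called for 49.1%. In this list it was called for 11 of 27, 6 with MeWo above and 5 below, with a median of -0.02. IRF7 was among them, at -0.67 ± 0.12. For MX1 the interaction was -0.02 ± 0.15 and for IFIT1 0.23 ± 0.19, and neither was called.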

How the data were processed

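Total RNA of MeWo and A101D was sequenced from libraries of a stranded kit, as the labels' protocols state. For each line the authors deposited 1 table of whole-number counts per gene without normalization. Its cells hold an Ensembl identifier and a count together, per the file headers, and were taken apart here. Trimmomatic 0.39-1, STAR 2.7.1a, featureCounts 2.0.0 and GRCh38 are named in the submitters' processing notes. The annotation release is not given in the sources used here, nor is the strand setting. Of 60676 identifiers, 60357 had a symbol.

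A gene was tested if 4 or more libraries reached 0.298 CPM (10 counts at the median depth) and its counts summed to 15 or more. The tests used limma (version 3.58.1, R version 4.3.3) with TMM factors, voom weights and robust moderation, on the 8 MeWo libraries for the 2 sets and on all 16 for the interaction. Python 3.11.15 made the summaries.

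The split, the gene lists and the genes named were chosen with earlier results of these data known. Named are the 12 highest and 12 lowest called differences among genes without overlap whose mean is 10 CPM or more. The 5 most abundant called genes with a difference of 0.5 or more, leading and defining members of each list, the genes seen before and those of largest interaction were added. Some genes that this rule would name are not reported here. Alternatives were other scalings, filters and thresholds, limma-trend, a fit of 16 libraries, a replicate block and leaving out each library. P-values measure the spread between these libraries.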

Additional observations from a re-analysis of the deposited data

Results flagged for a closer look

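For each gene named and 3 library measures, the gap of the highest or lowest library to the nearest of its set of 4 was divided by the range of the set and compared with Dixon's critical value. Of 250 sets checked, 17 exceeded it, where chance gives about 1 in 20, or 12.5. In replicates 1 to 4, replicate 1 was apart from the others in PHLDA1 (482.5 CPM against 468 to 470), and replicate 2 was apart from the others in APOL6 (8.99 CPM against 7.20 to 7.499), ACACA (110.2 CPM against 106.0 to 106.3), MT-TM (0.723 CPM against 0.149 to 0.221) and GAS5 (214.5 CPM against 226 to 227). Replicate 4 was apart in VEGFA (100.1 CPM against 91.1 to 92.4) and HSPA5 (316 CPM against 334). In replicates 5 to 8, replicate 8 was apart in CHAC1 (32.4 CPM against 40.4 to 41.7), CARS1 (96.1 CPM against 102 to 103) and IFI44L (1.27 CPM against 0.388 to 0.529). Replicate 5 was apart in RN7SL3 (82.1 CPM against 123.7 to 125.4), MTR (106.1 CPM against 112 to 113) and ACACB (25.7 CPM against 26.8 to 26.9), and replicate 6 in IL11 (24.3 CPM against 30.5 to 31.6), HMOX1 (33.5 CPM against 36.6 to 37.1), FOSL1 (82.2 CPM against 89.7 to 91.2) and PMEPA1 (221 CPM against 254 to 257).

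The difference between the sets was compared with that in A101D for 21 genes, and the interaction in limma was called for 20, IL11 being the exception. Over all genes it was called for 49.1%. The 21 genes were chosen with earlier results known, E2F2 for its large interaction, and MAT2A, ATF4 and ASNS chose the split. Their count is therefore a description and no test. MeWo was below A101D in 11 of them. The interaction was -0.34 for MAT2A, -0.60 for ATF4, -0.67 for IRF7, -1.07 for APOL6, -1.11 for SESN2, -1.34 for CCDC71L, -1.45 for CTH, -1.53 for ASNS, -1.77 for TRIB3, -2.09 for CEBPG and -2.10 for CHAC1. MeWo was above A101D in 9 of them. The interaction was 0.44 for SPOCK1, 0.81 for ACCS, 0.90 for SQLE, 0.92 for HMGCS1, 1.22 for UBAP1L, 1.28 for SLC6A6, 1.48 for AMD1, 3.11 for MCM10 and 4.86 for E2F2.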

How the results depend on the processing

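The 3184 called genes became 1745 at an adjusted p of 0.01 and stayed within 1.5 times of 3184 under every other setting, from 2258 without a low-count filter to 3350 with a filter at 1 CPM. Leaving out each library in turn gave 2259 to 3762. No called gene was called in the opposite direction in these refits. The 80 genes over 2-fold became 257 without a low-count filter, 16 with a filter at 1 CPM, 136 in the fit of all 16 libraries, 1 against a 2-fold threshold (treat; MAT2A, which chose the split) and 61 to 99 without each library in turn. The 3520 genes without overlap became 3273 to 4043. The 10594 interaction calls became 10064 to 10477 without each MeWo library in turn (no A101D library was left out), 8599 at 0.01 and 10649 with a replicate block. Deviations from the set mean had correlations of -0.0466 to 0.146 between same-numbered libraries of the lines. Within its set, the own number was closest for 3 of 8 libraries. No chance level was set for this, so it cannot exclude that same-numbered libraries deviate together. Replicates 1 to 4 and 5 to 8 share no number, so the sets could not be paired.

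Of the named genes called in MeWo, 92 stayed called under all 15 settings and none changed sign. The other 15 were CCN2, CLK3, HSPA5, MDM2, NNMT, OAS2, OASL, PEMT, PHGDH, PMEPA1, SLC7A11, SRSF1, SRXN1, TYRP1 and WTAP. Of these, 11 lost their call when some single library was left out, and 6 under another scaling. For NNMT and SRXN1 that library was replicate 8. The cause was not tested. Count tests other than limma, planned for the case that the columns passed as plain counts, were not run. Depth limits the rarest genes, such as IFI44L and RSAD2.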

Other observations

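Over all tested genes 8.14% were called higher and 9.36% lower. Of 22 immediate-early and MAPK output genes, 5 were called higher and 2 lower in replicates 5 to 8, with a median log2 difference of 0.04. The higher count was 3 without replicate 3, and the lower count was 5 without replicate 4. PHLDA1, an early response gene, was at 483, 469, 468 and 470 CPM against 593, 596, 591 and 590 CPM (0.33 ± 0.03 SE), and its sets did not overlap. IER3, another early response gene, was higher (0.25 ± 0.04), while FOSL1, a subunit of the AP-1 factor, was lower (-0.23 ± 0.04). Of 19 targets of YAP and TGF-beta, 1 was called higher, ID2 (0.14 ± 0.04), and 2 lower, CCN2 (-0.20 ± 0.05) and PMEPA1 (-0.19 ± 0.04).

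Of 16 noncoding host genes of small nucleolar RNAs, 4 were called higher and none lower, with a median of 0.04, and 7 were called higher with total counts. EPB41L4A-AS1 differed by 0.20 ± 0.05 and GAS5 by 0.15 ± 0.03, from 224 ± 6.13 to 248 ± 6.57 CPM (SD, n = 4 each). Of 27 lysosome and autophagy genes, 2 were called higher and 3 lower, against 5 and 2 with total counts. GLA, a lysosomal galactosidase, had the largest difference among those called, from 100.0 ± 1.84 to 88.2 ± 1.47 CPM (-0.18 ± 0.04). Of 13 tested structured noncoding RNAs of 23 listed, 1 was called higher and 2 lower, RN7SL1 among the latter.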
